A study of Rattus norvegicus with 6 samples.

Results

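N-myc and c-myc are the 2 MYC family genes among the 311 features of a spotted rat array, and they were chosen by those gene names in the array files. Their current rat symbols are Mycn and Myc. RNA from each sample was hybridized together with RNA of untreated ROSE199 cells, a line from rat ovarian surface epithelium, on 6 two-colour arrays. Every array therefore gives a ratio of sample to ROSE199 for each gene.

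The empty_vector group (1 array) was ROSE199 stably transfected with the expression vector pEF6 without an insert. The HMGA2 group (2 arrays) was ROSE199 stably transfected with pEF6 carrying HMGA2, a DNA-binding protein of chromatin. Both were selected in 10 µg/ml blasticidin. The siEGFP group (1 array) was ROSEA25 cells given siRNA against EGFP as the control, and the siHMGA2 group (2 arrays) was ROSEA25 cells given siRNA against HMGA2. The siRNA was used at 0.2 µM in 2 doses 24 h apart, and cells were taken 48 h after the first dose. ROSEA25 was taken as the RAS-transformed derivative of ROSE199, because the protocol speaks of ROSE-RAS cells. All cells grew in 10% serum. The labels do not say whether the transfectants were pools or single clones. The arrays of a group swap the dyes and were taken as labellings of the same RNA, so each group is 1 RNA sample. No test between groups was possible, no p-value is given, and every difference below is between single cultures.

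MYC proteins are transcription factors with a basic helix-loop-helix leucine zipper. They pair with MAX and bind E-box sequences near genes of growth, metabolism and cell division. c-myc is expressed in most dividing cells and is an early response gene to growth factors. N-myc is best known from the embryo, above all the developing nervous system, and from neuroblastoma, where its gene is often amplified. In neuroblastoma cells with high N-myc, c-myc RNA is usually low. RAS signalling through ERK is known to stabilize the c-MYC protein, a step that an RNA array does not measure.

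The labels were checked on HMGI-C (the name of HMGA2 in these files) and on K-ras. HMGI-C was called higher than in ROSE199 in the HMGA2, siEGFP and siHMGA2 groups (log2 differences of 3.51, 2.41 and 1.40), and K-ras was called higher in both ROSEA25 groups (4.24 and 4.71). With siHMGA2, HMGI-C was 1.01 below siEGFP on the log2 scale, but this difference ranged from -1.29 to -0.08 over 17 other ways of processing (-0.44 without siHMGA2 replicate 1), so the comparison of siHMGA2 with siEGFP is between libraries labelled that way with an unstable knock-down. All 6 markers of ovarian surface epithelium on the array, among them WT1, E-cadherin and Basonuclin, were above the blank limit in the ROSE199 channel of all 6 arrays. Collagen alpha and Lox, markers of stroma, were above it on all 6 arrays as well, and Thy-1 on 5. Their part in the results was not tested. Scanner quantification of the 2 HMGA2 arrays fell on a separate day from that of the other 4. HMGA2 and quantification day therefore cannot be told apart where HMGA2 is set against the empty vector.

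N-myc was higher in the HMGA2 transfectants than in any other group, and c-myc was not. The log2 ratio of N-myc to ROSE199 was 0.00 on the empty-vector array. It was 1.35 and 1.18 on the HMGA2 arrays, -0.91 on the siEGFP array, and -0.35 and -0.31 on the siHMGA2 arrays. After centring by loess, the HMGA2 arrays stood above ROSE199, the empty-vector array was level with it, and the ROSEA25 arrays lay below it. The place of siHMGA2 replicate 2 depended on the processing. It read 0.22 before loess and 0.20 in the authors' deposited table, where the empty-vector array read -0.05 and 0.03.

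After loess, the c-myc ratios covered a narrower range and none was above 0. They were -0.10 on the empty-vector array, -0.78 and -0.71 on the HMGA2 arrays, -0.50 on the siEGFP array, and -0.13 and -0.32 on the siHMGA2 arrays. On that scale the HMGA2 arrays held the lowest c-myc values and the highest N-myc values of the 6. Before loess, c-myc read 0.02 on the siEGFP array. In the authors' deposited table it read 0.27 there, and 0.44 and -0.47 on the siHMGA2 arrays. The same table gave -0.46 and -0.87 for c-myc on the HMGA2 arrays, so siHMGA2 replicate 2 was level with HMGA2 replicate 1.

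Single spots gave the same picture for HMGA2. N-myc is printed as 4 spots per array and c-myc as 5. All 8 N-myc spots on the HMGA2 arrays were above 0, from 0.84 to 1.42. All 10 c-myc spots on those arrays were below 0, from -0.80 to -0.67. The spots are repeat prints on arrays of 1 RNA sample, and they say nothing of the spread between cultures. On the empty-vector array the N-myc spots ran from -0.04 to 0.04, and the 4 c-myc spots that were not marked as poor ran from -0.36 to 0.01.

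In ROSEA25 cells the spots of the dye-swapped array varied more. The siEGFP spots were tight, from -0.94 to -0.87 for N-myc and from -0.54 to -0.46 for c-myc. All 8 siHMGA2 spots of N-myc were below 0 after loess, but they spread from -0.88 to -0.01. On siHMGA2 replicate 2 the net log2 ratios of the N-myc spots before loess were -0.50, 0.81, 0.61 and 0.60. The sign of most of these spots thus came with the loess step. Of the 10 siHMGA2 spots of c-myc, 8 were below 0 and 2 above, from -0.59 to 0.05. The spot SD on siHMGA2 replicate 2 was 0.39 for N-myc and 0.34 for c-myc, against a median over all features of 0.13 on that array.

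**Figure D1:**
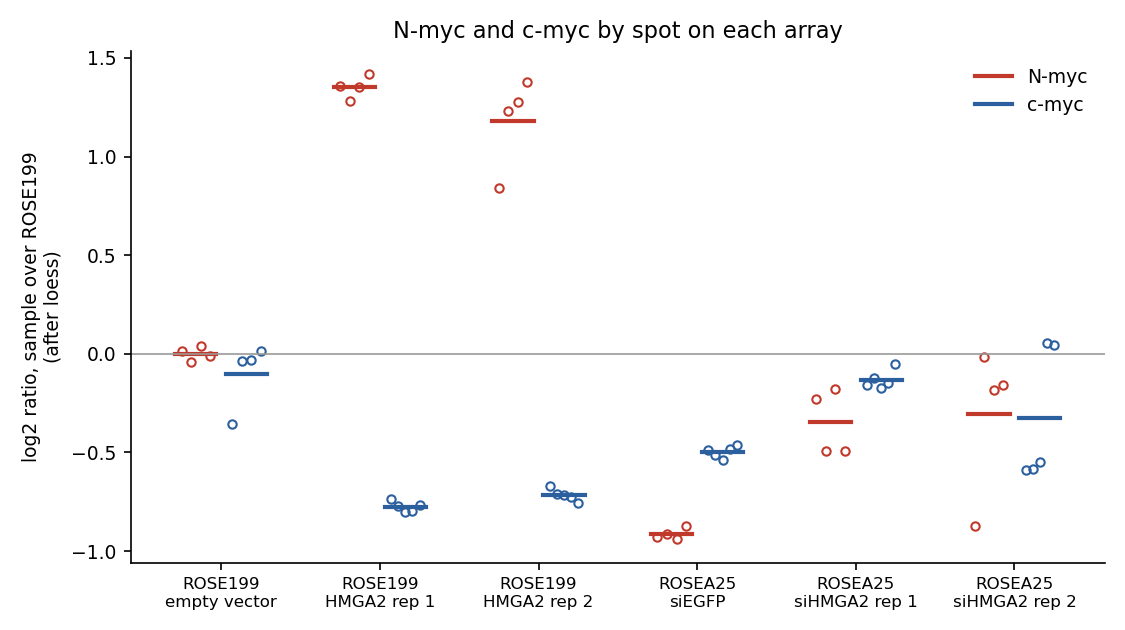
Log2 ratio of sample to ROSE199 (vertical axis) of every usable N-myc and c-myc spot on each of the 6 arrays, with the mean per array. On the HMGA2 arrays all 8 N-myc spots lie between 0.84 and 1.42 and all 10 c-myc spots between -0.80 and -0.67, while elsewhere the genes lie closer together.

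The signals behind these ratios were above the blank limit, the mean of the blank spots plus 3 SD, for both genes in both channels of all 6 arrays. The mean net signal of N-myc in the sample channel was 988 on the empty-vector array, 2380 and 1860 on the HMGA2 arrays, 280 on the siEGFP array, and 219 and 287 on the siHMGA2 arrays. The ROSE199 channel read 1040, 880, 630, 769, 461 and 243 for N-myc in the same order of arrays. N-myc was closest to the limit on siHMGA2 replicate 2, at 1.71 times it in the sample channel and 1.52 times it in the ROSE199 channel, and its siEGFP signal was 1.98 times the limit. The lower N-myc ratios of the ROSEA25 arrays therefore rest on dim signals.

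The c-myc spots gave a sample signal of 6150 on the empty-vector array, 2480 and 4090 on the HMGA2 arrays, 5330 on the siEGFP array, and 2260 and 1570 on the siHMGA2 arrays. The ROSE199 channel read 5750, 3990, 5930, 5310, 2520 and 2210. The lowest of these was 9.33 times the blank limit, on siHMGA2 replicate 2. Signals of the genes are not set against each other, since probe brightness depends on the probe.

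**Figure D2:**
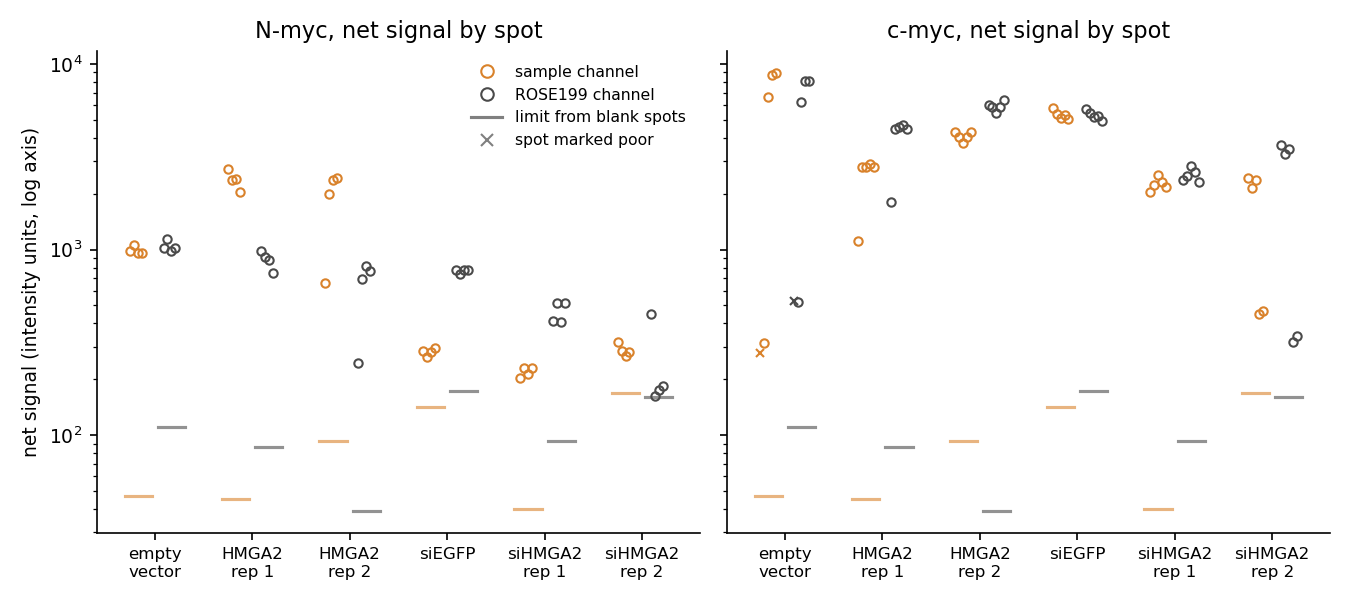
Net signal (log axis) of every N-myc and c-myc spot in the sample channel and in the ROSE199 channel of each array. Lines show the blank limit, and crosses show spots marked as poor. The mean of the N-myc spots in the sample channel is 2380 and 1860 on the HMGA2 arrays and 219 to 988 on the others.

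Some spots of both genes were much fainter than the others of the same gene on the same array. On the empty-vector array, 2 of the 5 c-myc spots had sample signals of 276 and 313, while the other 3 read 6621 to 8974. The first of the faint spots was marked as poor and left out. With the second left out too, the c-myc ratio of that array was -0.02 in place of -0.10. On siHMGA2 replicate 2, 2 c-myc spots read 449 and 464 with a log2 ratio of 0.05, while the other 3 read 2145 to 2422 with ratios of -0.59 to -0.55. Without the 2 faint spots that array gave -0.57, which lies further from the -0.13 of siHMGA2 replicate 1. On the HMGA2 arrays leaving out faint spots moved N-myc of replicate 2 from 1.18 to 1.30 and c-myc by less than the rounding. The rule was set after the data were seen. It took a spot as discordant when its brightness lay over 1 log2 unit from the median of its feature, fainter or brighter. Between 4.84% and 33.5% of the features other than beta actin had a discordant spot on an array, most on siHMGA2 replicate 2.

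Fitted group values put these ratios on one scale, with 1 value per group and 1 dye term. A gene was called when its log2 difference reached 1 in size (2-fold), exceeded 2 pooled standard errors (SE), and kept its sign with the sample in Cy5 alone. The pooled SE comes from the dye-swapped arrays and covers labelling and hybridization only, not the spread between cultures. The same holds for the 95% intervals.

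Against the empty vector, N-myc rose with HMGA2 and c-myc did not pass. The N-myc difference was 1.30 on the log2 scale (SE 0.22, interval 0.86 to 1.74), which is 2.46-fold, the eighth highest of the 311 features. N-myc was thus 1 of 14 features called higher, 4.5% of those tested (23 features, 7.4%, without HMGA2 replicate 1). The c-myc difference was -0.61 (SE 0.22, interval -1.05 to -0.17), which is 1.52-fold lower, the 23rd lowest, and short of the size limit. In that direction 3.22% of features were called. The difference of N-myc minus that of c-myc was 1.91 (SE 0.32, interval 1.29 to 2.53), or 3.75-fold, and does not depend on how an array is centred as a whole.

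Against ROSE199 the HMGA2 transfectants gave the same order. N-myc was 1.27 higher on the log2 scale (SE 0.12, interval 1.03 to 1.5), which is 2.41-fold and the tenth highest, and was called, as were 4.5% of the features in that direction. c-myc was at -0.74 (SE 0.12, interval -0.98 to -0.51), 1.68-fold lower and the 18th lowest, and was not called. Of all features 2.25% were called lower, and 6.75% in either direction; the 7 lower calls became 15 without HMGA2 replicate 2. The gap between the genes was 2.01 (SE 0.17, interval 1.68 to 2.34), or 4.03-fold. On the single arrays it was 2.13 and 1.90, against 0.10 on the empty-vector array. This comparison shares its HMGA2 arrays with the one above and is no independent support for it.

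With the empty vector neither gene was called. Against ROSE199, N-myc was at -0.03 (SE 0.19, interval -0.40 to 0.34) and c-myc at -0.14 (SE 0.19, interval -0.51 to 0.23). The gap between them was 0.10 (SE 0.27). Of all features, 1.29% were called higher and 1.61% lower in this comparison, 2.89% in all. The 5 lower calls became 11 without either HMGA2 array and 3 without either siHMGA2 array.

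In ROSEA25 cells with siEGFP both genes had values below ROSE199, and neither was called. N-myc was at -0.95 (SE 0.19, interval -1.32 to -0.58), 1.93-fold lower and just short of the size limit, the 50th lowest of 311. c-myc was at -0.53 (SE 0.19, interval -0.90 to -0.16), 1.44-fold lower and the 85th lowest. The gap of -0.42 had an interval from -0.94 to 0.11, so a difference between the genes was not resolved. Values this low were common on the siEGFP array, where 15.4% of features were called lower and the lower quartile of all features was -0.63.

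The siEGFP values depended on the centring. N-myc and c-myc have different brightness, and the loess curve moved them in opposite directions on this array. Before the curve was taken off, N-myc read -1.27 and c-myc 0.02; after it they read -0.91 and -0.50. With each array centred on its median instead, N-myc was at -1.22 and passed the rule, c-myc was at -0.17, and the gap was -1.05. The authors' deposited table of ratios gave -1.63 for N-myc and 0.27 for c-myc on this array. N-myc was below ROSE199 under each of the 18 alternatives, from -1.60 to -0.55, and c-myc ranged from -0.59 to 0.18.

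With siHMGA2, ROSEA25 cells had values nearer to ROSE199. N-myc was at -0.33 (SE 0.12, interval -0.56 to -0.09) and c-myc at -0.23 (SE 0.12, interval -0.46 to 0.01). Neither was called, while 19% of all features were, 10.3% lower than ROSE199 and 8.68% higher. Against siEGFP, N-myc was 0.62 higher on the log2 scale (SE 0.22, interval 0.18 to 1.06), or 1.54-fold and the 46th highest, without reaching the size limit. c-myc was 0.30 higher (SE 0.22, interval -0.14 to 0.74), the 93rd highest. The gap between the genes was 0.32 (interval -0.30 to 0.94). In this comparison 8.68% of features were called higher and 2.25% lower. These 27 and 7 calls became 12 and 4 without siHMGA2 replicate 1, and 31 and 11 without siHMGA2 replicate 2 or without either HMGA2 array. N-myc passed with beta actin centring (1.06) and with the authors' deposited table (1.52). The deposited N-myc ratios of the siHMGA2 arrays were -0.36 and 0.20, with opposite signs. Those of c-myc were 0.44 and -0.47, also with opposite signs.

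**Figure D3:**
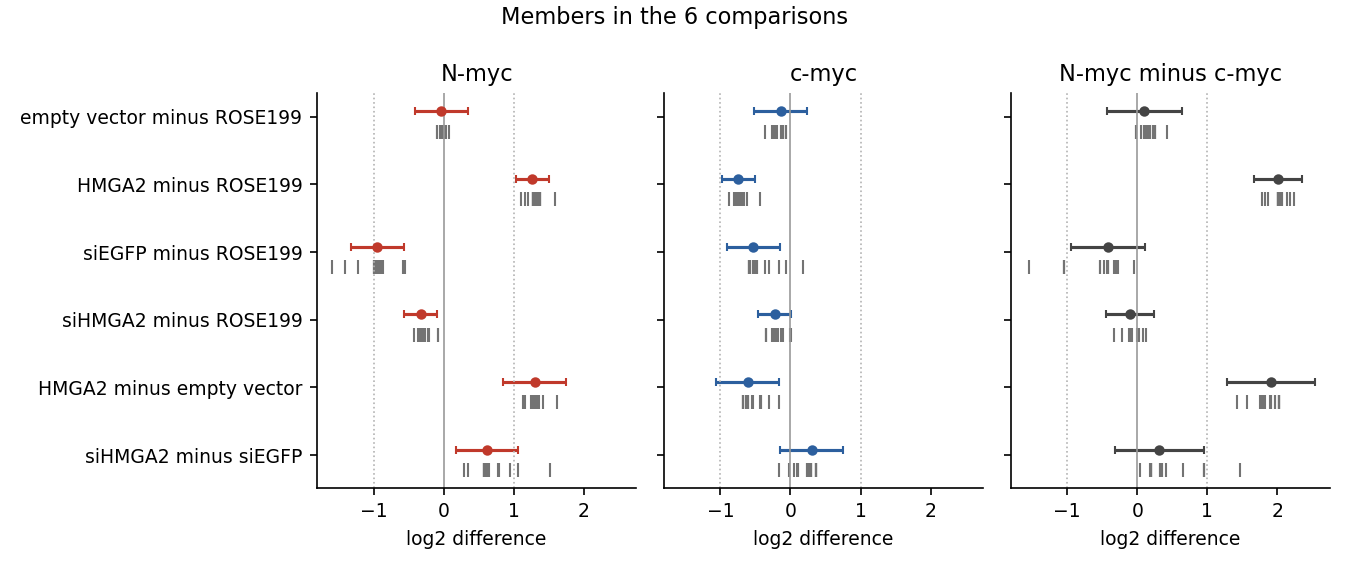
Log2 difference of N-myc, of c-myc and of N-myc minus c-myc in the 6 comparisons, with 95% intervals from the pooled SE. N-myc lies at 1.30 and 1.27 in the HMGA2 comparisons and c-myc at -0.61 and -0.74, while both lie below 0 in ROSEA25 against ROSE199.

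Ordered by level, N-myc ran from HMGA2 (1.27) through ROSE199 (0 by definition), empty_vector (-0.03) and siHMGA2 (-0.33) to siEGFP (-0.95). The step from HMGA2 to ROSE199 and the step from siHMGA2 to siEGFP (0.62, SE 0.22) were over 2 SE. The steps from ROSE199 to empty_vector (0.03, SE 0.19) and from empty_vector to siHMGA2 (0.29, SE 0.22) were not. For c-myc the order was ROSE199, empty_vector (-0.14), siHMGA2 (-0.23), siEGFP (-0.53) and HMGA2 (-0.74). None of its 4 neighbouring steps, which were 0.14, 0.09, 0.30 and 0.22, exceeded 2 SE. HMGA2 was thus at opposite ends of the orders of the genes.

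Of the genes of the MYC network listed for this work, the array held ID2, an inhibitor of helix-loop-helix factors that N-MYC is reported to raise. ID2 was at 0.02 in HMGA2 against the empty vector, on the log2 scale. It rose in ROSEA25, to 1.29 with siEGFP and 1.09 with siHMGA2 against ROSE199. In siEGFP 11.3% of all features were called higher, and in siHMGA2 8.68%. The siEGFP call held under 17 of 18 alternatives (0.73 to 2.06). The siHMGA2 call held under 12 (0.92 to 1.23), and was lost without replicate 2, where ID2 was at 0.95. N-myc was below ROSE199 in siEGFP (-0.95) and siHMGA2 (-0.33) without being called in either. A link between ID2 and N-myc was not tested.

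None of the 5 listed genes reported to be raised by MYC was called in any of the 6 comparisons. With 2.89% to 26.7% of all features called per comparison, a count of 0 among 5 is not apart from the background. The genes were ODC1 (ornithine decarboxylase, of polyamine synthesis), GAPDH (glycolysis), TERT (telomerase), P53 and the ribosomal protein S9. In HMGA2 against the empty vector they had values of -0.55, -0.52, -0.34, -0.23 and -0.52, with a median of -0.52 against 0.00 over all features. All 5 stayed below 0 with median centring (median -0.21) and housekeeping centring (-0.23), and 4 did in the authors' deposited table. With arrays centred on beta actin the signs did not hold: 3 of the 5 were above 0 and the median was 0.04. That centring moved the median of all features by 0.21. TERT passed in that comparison under 2 of 17 alternatives (-1.08 to -0.17), and was not above the blank limit with siEGFP.

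The 13 listed genes reported to be lowered by MYC were mixed in the HMGA2 comparison. Against the empty vector 1 rose, Cav-1 (caveolin 1, a coat protein of membrane pits) by 1.04, and 1 fell, Collagen alpha (a matrix protein) by 1.44. The other 11 were not called, among them Thrombospondin 1 at -0.05, CyclinD1 (a driver of the G1 phase) at 0.02, P27 kip (a CDK inhibitor) at 0.63 and GADD153 (a stress-induced factor) at 0.31. Their median was 0.03, and 7.72% of all features were called in either direction. The Cav-1 call sat at the size limit and held under 13 of 18 alternatives (0.94 to 1.54). It was lost, at 0.99, without HMGA2 replicate 2 and without either siHMGA2 array. The Collagen alpha call held under 17 (-1.55 to -0.76). Fibronectin (a matrix glycoprotein) was at -0.69 and passed as lower, at -1.01, without HMGA2 replicate 1. Lox was at 0.58 and passed under 2 of 18 alternatives (0.43 to 1.27).

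In siEGFP against ROSE199, 8 of these 13 were called, 3 higher and 5 lower, where 26.7% of all features were called. CyclinD1 (2.08), GADD153 (1.62) and Cav-1 (1.12) rose. Collagen alpha (-4.70), Thrombospondin 1 (-3.77), TRPM-2 (clusterin, -3.33), Lox (the collagen cross-linking enzyme, -3.13) and TPM2 (a tropomyosin, -1.12) fell. Under the 18 alternatives the calls of GADD153 and Cav-1 held in 17, with lowest values of 0.76 and 0.60, and that of TPM2 in 16, with -0.58 as its value nearest to 0. Those of the other 5 held in all. Of the uncalled genes, P27 kip passed under 2 of 17 alternatives and Fibronectin under 1 of 18. Part of this list was also lower in ROSE199 transfectants. Collagen alpha (-1.42), Thrombospondin 1 (-1.55) and Lox (-1.24) were called lower with the empty vector against ROSE199, as were 1.61% of all features. With HMGA2 against ROSE199, Collagen alpha (-2.87) and Thrombospondin 1 (-1.60) were called lower, as were 2.25% of all features. These comparisons share the ROSE199 reference. PDGF receptor was not above the blank limit with siEGFP. Neither member of the MYC family was called in that comparison. With siHMGA2 against siEGFP, Collagen alpha (1.36) and Thrombospondin 1 (1.13) rose and the other 11 were not called. In that comparison 8.68% of all features were called higher. The Thrombospondin 1 call held under 11 of 18 alternatives (0.01 to 1.35) and was lost, at 0.81, without siHMGA2 replicate 1. That of Collagen alpha held under 15 (-0.38 to 1.46). Of the uncalled genes, GADD153, CyclinD1 and Fibronectin each passed under 1 of 18 alternatives.

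Early response transcription factors, the class to which c-myc belongs, were not called in HMGA2 against the empty vector, where the 7 on the array had a median of -0.17 and 7.72% of all features were called. The lowest was Fra-1 (a FOS family partner of JUN) at -0.90, which passed as lower (-1.49) without HMGA2 replicate 1, and the highest were Egr-1 and Ets-2 at 0.16. In siEGFP against ROSE199, 2 of the 7 were called, near the 26.7% of all features. Fra-1 rose by 1.40 and Fra2 (of the same family) was called lower at -1. The Fra2 call held under only 5 of 18 alternatives (-1.08 to -0.19), and was lost, at -0.92, without either siHMGA2 array; that of Fra-1 held under 17. JUN (0.45), JunB (0.95), JunD (-0.66), Egr-1 (-0.29) and Ets-2 (-0.09) were not called, though JunB passed under 4 of 18 alternatives (up to 1.63) and JUN under 1 (1.11). The lists hold too few measured genes to say anything of MYC activity as a whole.

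**Figure D4:**
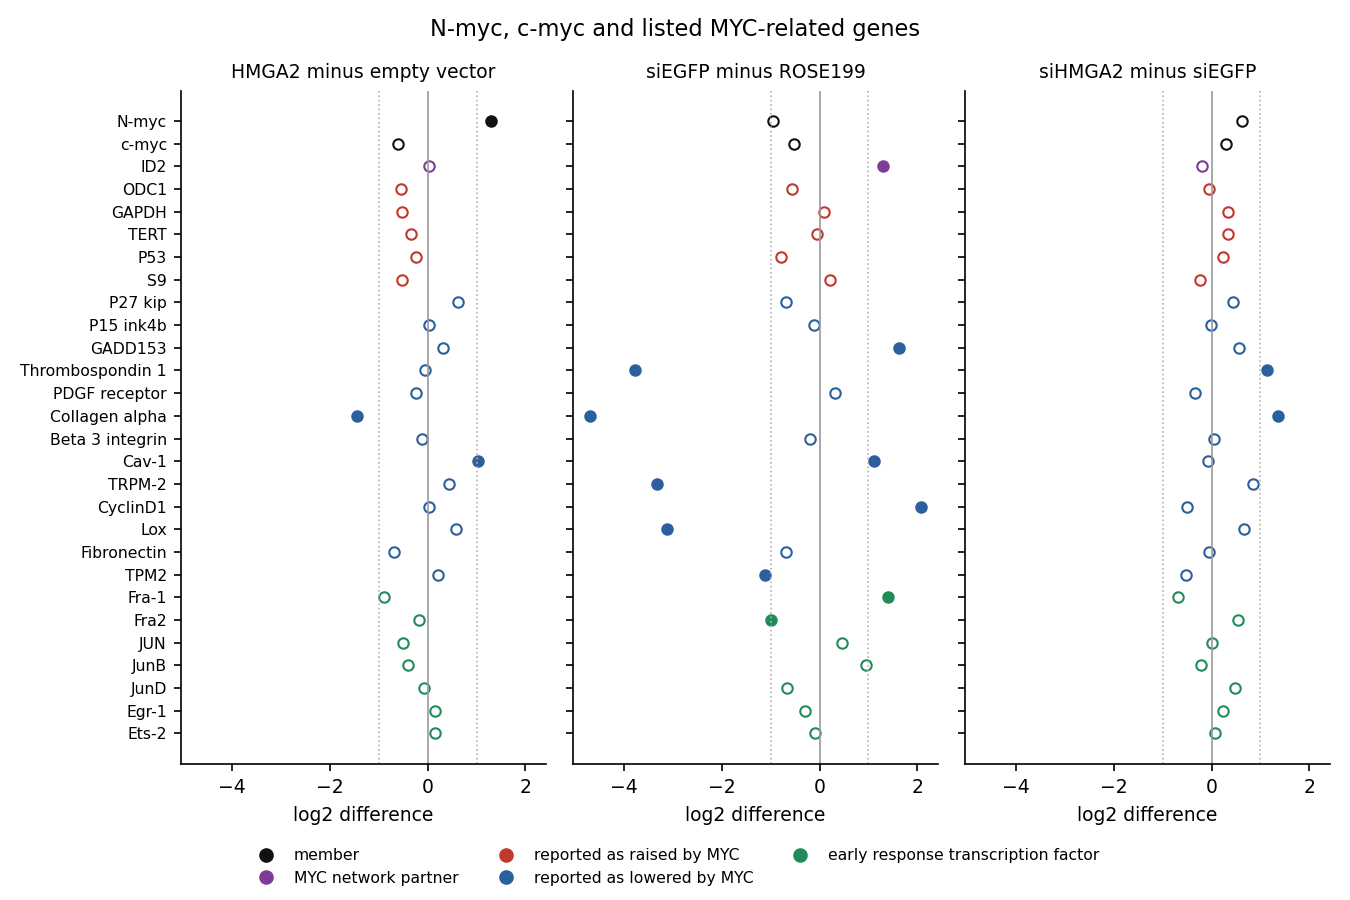
Log2 difference of the 26 listed genes, with N-myc and c-myc, in 3 comparisons, which set HMGA2 beside its empty vector, siEGFP beside ROSE199, and siHMGA2 beside its siEGFP control. The 5 genes reported as raised by MYC lie between -0.55 and -0.23 in the first, and Collagen alpha is at -4.70 in the second.

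The features nearest to each gene were found by the root mean square distance of their log2 ratios over the 6 arrays, among 250 named features above blank in both channels of every array. For N-myc they were DOC-2 (0.38), TIMP-2 (0.40), Ril (0.42), NO3 (0.46) and P5 protein (0.47). DOC-2 is an endocytic adaptor and marker of the ovarian surface epithelium, and TIMP-2 an inhibitor of matrix metalloproteinases. All 5 were above 0 on both HMGA2 arrays and below 0 on the siEGFP array, which follows from their choice by closeness to N-myc on these arrays. DOC-2, for example, read 0.96 and 0.62 with HMGA2 and -0.75 with siEGFP, and NO3 read 1.75 and 1.89 with HMGA2 and -0.23 with siEGFP.

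c-myc had closer neighbours than N-myc. P16 (ink4a), a CDK inhibitor, lay at a distance of 0.07, followed by Nras-rat (0.17), VD3r, the array's vitamin D receptor (0.19), HNOP56, a nucleolar protein of ribosome assembly (0.23), and VL30, a retroelement (0.23). P16 (ink4a) read 0.01 on the empty-vector array, and -0.68 and -0.79 on the HMGA2 arrays. It read -0.51 on the siEGFP array, and -0.15 and -0.28 on the siHMGA2 arrays. These features shared the arrays and the ROSE199 reference, and a small distance is easier to reach for a gene whose own ratios are small. The choice depended on the measure: ranked by correlation over the 6 arrays, 0 of the 5 features of N-myc and 2 of the 5 of c-myc were named again, and with the authors' deposited table it was 2 and 1.

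**Figure D5:**
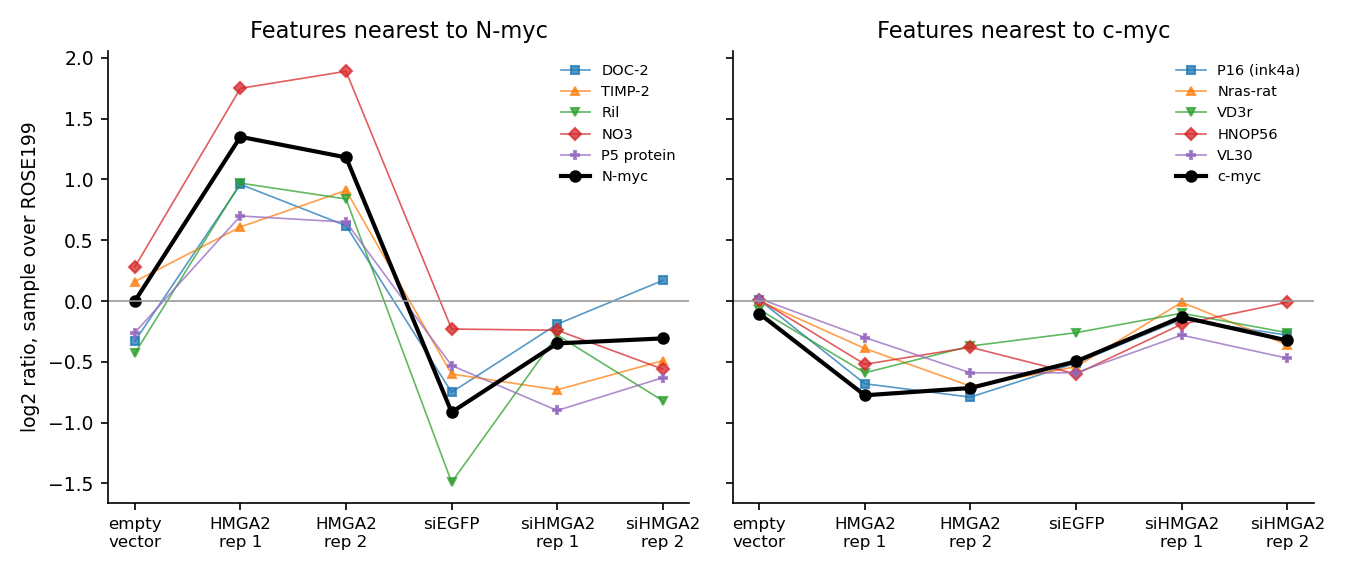
Log2 ratio to ROSE199 on the 6 arrays of N-myc and of c-myc, each with its 5 nearest features. The N-myc set is above 0 on both HMGA2 arrays and below 0 on siEGFP, and P16 (ink4a) lies within 0.07 of c-myc by root mean square distance.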

How the data were processed

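RNA was measured on 6 two-colour arrays, with the sample in Cy5 on 4 and in Cy3 on 2. Per the file headers (version 5), the deposited quantification files give, for each spot and dye, an intensity as a mean signal and a median local background. The authors' deposited table holds log2 ratios, whose direction (sample over ROSE199) was read from their correlation with the spot ratios (0.841 to 0.948); its column medians ran from -0.10 to 0.20. How these ratios were centred: not given in the sources used here. It served as an alternative. The labels state that 20 µg of RNA was labelled.

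There are 1760 spots per array, with 37 blanks and 325 spots of beta actin. Spots marked as poor (21 to 64 per array) were left out. Background was corrected by normexp (offset 50) and ratios were centred by loess (span 0.3, 4 iterations; weight 0 for blanks and beta actin), in R 4.3.3 with limma 3.58.1. Spots were averaged into 311 features, and each was fitted with 4 group values and 1 dye term over the 6 arrays. The 1 residual per feature was pooled (scaled median absolute SD 0.169; root mean square 0.229). In single-array groups a dye effect of that array stays in the value. The fit was run on simulated ratios with normal noise at the pooled SD and the same dye model. That run held no faint spots and no intensity-dependent shift, so it cannot show how reliable the calls are here. The number of arrays limits the precision.

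The members, the gene lists and the tests were chosen with earlier results of these data known. Named genes are the members, listed genes found on the array, HMGI-C and K-ras, and the 5 nearest features of each member. Alternatives changed the background, centring, scaling, dye term, spots, source table and arrays used. Probe, promoter and protein sequences of the members were not used here.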

Additional observations from a re-analysis of the deposited data

Results flagged for a closer look

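N-myc moved in opposite directions against the same ROSE199 reference. Both HMGA2 arrays were above 0 (1.35 and 1.18), and the siEGFP array was below 0 (-0.91), so that HMGA2 minus siEGFP was 2.21 on the log2 scale. Both siHMGA2 arrays were below 0 as well (-0.35 and -0.31), and HMGA2 minus siHMGA2 was 1.59. The sign of siHMGA2 replicate 2 depended on the processing, since its N-myc ratio was 0.22 before loess and 0.20 in the authors' deposited table. Neither difference was tested, since each group is 1 RNA sample, and HMGA2 was quantified on another day. The HMGA2 group is ROSE199 and the other groups are ROSEA25, so cell line and HMGA2 cannot be told apart in them.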

How the results depend on the processing

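N-myc kept its call and its sign under all 18 alternatives in HMGA2 against the empty vector (1.13 to 1.61) and against ROSE199 (1.11 to 1.59), and c-myc stayed below 0 and uncalled under all 18 in both (-0.67 to -0.17 and -0.87 to -0.44). Of 324 combinations of result and alternative, 270 kept the call with a value no further than the pooled SE from the main value. None changed the sign of a called value. A value near 0 could change sign within that limit: N-myc in the empty vector against ROSE199 kept its sign under 8 of 18 alternatives. Some alternatives could not move some values, and these count among the 270. For example, N-myc in HMGA2 against ROSE199 stayed at 1.27 without either siHMGA2 array and without the dye term, which do not enter that value. The cause of the moves was not tested unless the alternative itself states it.

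Without background correction N-myc was 1.11 in HMGA2 against ROSE199 (gap to c-myc 1.82), -0.55 in siEGFP (gap -0.04) and 0.34 in siHMGA2 against siEGFP. With median centring siEGFP gave N-myc -1.22, now called, c-myc -0.17 and a gap of -1.05, and siHMGA2 against siEGFP gave 0.95, -0.02 and 0.96. With beta actin centring N-myc and c-myc were 1.59 and -0.44 in HMGA2 against ROSE199 and 1.61 and -0.17 against the empty vector; in siEGFP N-myc was -1.41, now called, with a gap of -1.05, and in siHMGA2 against siEGFP N-myc was 1.06, now called, with a gap of 0.96. Housekeeping centring gave c-myc 0.18 and a gap of -1.05 in siEGFP, N-myc -0.08 and c-myc 0.01 in siHMGA2 against ROSE199, and c-myc -0.17 and a gap of 0.96 in siHMGA2 against siEGFP. Scaling the arrays to one spread gave a gap of 2.18 in HMGA2 against ROSE199, N-myc -0.58 and c-myc -0.30 in siEGFP, and N-myc 0.29 in siHMGA2 against siEGFP. Medians over spots gave c-myc -0.35 and a gap of 0.08 in siHMGA2 against ROSE199. Leaving out discordant spots, chosen after seeing the data, gave c-myc -0.35 there.

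The authors' deposited table gave c-myc -0.36 and a gap of 0.43 in the empty vector; N-myc -1.60, now called, c-myc -0.06 and a gap of -1.54 in siEGFP; N-myc -0.08 and c-myc -0.01 in siHMGA2 against ROSE199; c-myc -0.30 and a gap of 1.43 in HMGA2 against the empty vector; and N-myc 1.52, now called, c-myc 0.05 and a gap of 1.47 in siHMGA2 against siEGFP.

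Leaving out each array of HMGA2 and of siHMGA2 in turn left no residual, so the pooled SD above was used. N-myc, c-myc and their gap then ranged, in the empty vector, from -0.09 to 0.02, -0.20 to -0.07 and -0.01 to 0.22; in HMGA2 against ROSE199, from 1.16 to 1.37, -0.87 to -0.62 and 1.78 to 2.24; in siEGFP, from -1 to -0.89, -0.59 to -0.47 and -0.53 to -0.30; in siHMGA2 against ROSE199, from -0.43 to -0.22, -0.35 to -0.10 and -0.33 to 0.13; in HMGA2 against the empty vector, from 1.14 to 1.35, -0.67 to -0.42 and 1.56 to 2.02; and in siHMGA2 against siEGFP, from 0.57 to 0.78, 0.11 to 0.37 and 0.20 to 0.66, the last without siHMGA2 replicate 1.

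Centring also moved the calls over all features: in HMGA2 against the empty vector 14 were higher and 10 lower (58.3% higher), but 34 and 7 (82.9%) with beta actin; housekeeping centring changed the share higher from 42.2% to 66.1% in siEGFP and from 79.4% to 47.2% in siHMGA2 against siEGFP, where median centring gave 61%. No paired analysis was possible because the dye-swapped arrays of a group were taken as labellings of the same RNA, which the labels do not settle, and the single-array controls have only replicate 1. Dim signal limits N-myc in ROSEA25, and 1 RNA sample per group limits every comparison.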
